A study of Homo sapiens with 12 samples.

Results

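The mitochondrial respiratory chain genes described here encode the nuclear subunits of complexes I to V, together with the complex I assembly factors that share their names. They were taken by symbol, as every gene whose symbol starts with NDUFA, NDUFB, NDUFC, NDUFS, NDUFV, UQCR, ATP5 or COX4 to COX8, plus SDHA to SDHD and CYC1. Where a gene had several rows, the one with the highest mean was used. The rule used no measured value to choose genes, but it was set with earlier results of these data known. It found 88 of the 22395 genes named on the array, and 40 of them, all protein-coding, had a mean level of at least 5 on the log2 scale and entered the tests, among 5820 tested genes (26.0% of the named genes). RNA came from NCI-H1975, a cell line established from a human lung adenocarcinoma whose EGFR carries L858R, an activating substitution, and T790M, a substitution known for resistance to erlotinib, and every group shared this genotype. Cells received erlotinib, an inhibitor of the EGFR kinase, or quinacrine, an antimalarial acridine, or both.

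The groups were the combination of 1 µM erlotinib and 3 µM quinacrine at 6, 12, 24 and 48 h (4 arrays), 3 µM quinacrine alone at 6, 12 and 24 h (3 arrays), 1 µM erlotinib alone at 6, 12, 24 and 48 h (4 arrays), and untreated cells with no time in the label (1 array). Each treatment and time had 1 array, so n counts time points and there was no replicate of a condition. No label says that arrays were from different cultures, so each p-value below speaks for the spread among the arrays of its own fit alone. A single cell line of 1 genotype limits what the groups stand for. Levels are log2 values, on which a difference of 1 is a doubling. The arrays were put on a common scale by the authors, so a change in the total RNA of a cell would not be visible.

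Complex I takes electrons from NADH and complex II takes them from succinate. They pass through ubiquinone to complex III, through cytochrome c to complex IV and on to oxygen, while complexes I, III and IV pump the protons that drive the ATP synthase, complex V. The subunits come from nuclear genes scattered over the genome and from a few genes of the mitochondrial DNA, and their nuclear promoters are known for sites of NRF1, of ETS family factors such as GABPA, and of YY1.

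Of the 88 genes, 34 belonged to complex I (17 tested), 9 were complex I assembly factors (2 tested), 2 belonged to complex II (2 tested), 9 to complex III (6 tested), 17 to complex IV (5 tested) and 17 to complex V (8 tested). The succinate dehydrogenase subunits SDHA and SDHB, the Rieske protein UQCRFS1, and NDUFA4 and NDUFA4L2 were not analysed here, nor were the subunits encoded by mitochondrial DNA. A further 15 array rows held a respiratory chain symbol together with another gene and were set aside. One of them named UQCRH and UQCRHL together, so the row of UQCRHL, a near copy of the complex III hinge protein UQCRH, is an uncertain measure of either gene.

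The array carried an epithelial signature that matched the label: 6 of 10 lung adenocarcinoma markers (EPCAM, KRT7, KRT19, CDH1, NKX2-1 and MUC1) had a mean of at least 5, whereas NAPSA, SFTPB, KRT8 and KRT18 lay below it. No fibroblast, endothelial or muscle marker reached 5, and of 5 leukocyte markers CD68 alone did, at 8.21 to 9.07, while PTPRC, which defines leukocytes, stayed at or below 1.38. The combination array of 6 h stood apart, with an interquartile range over all rows of 2.04 against 2.26 to 2.88 on the other 11 arrays. It also held the lowest value of 14 of the 40 tested respiratory chain genes, and 24 of all 88. The share over all tested genes was not computed. Their median on that array was -0.21 from the untreated array, against -0.14 for the 40 genes, so its low values were not particular to the chain. What that array contributed to the differences below is given as values computed without it where a call turned on it.

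Respiratory chain transcripts varied less over the arrays than most tested genes. The median standard deviation over the 12 arrays was 0.15 log2 units for the 40 genes, against 0.22 for all tested genes, and the median range was 0.48 against 0.74. A range of 1 or more occurred in 4 of the 40 genes (10%) and in 1669 of the 5820 tested genes (28.7%). These 4 were the assembly factor NDUFAF8, the ATP synthase subunit ATP5F1D, UQCRHL and the complex I subunit NDUFA7, with ranges of 1.46, 1.45, 1.15 and 1.08. Without the combination array of 6 h, an alternative chosen after seeing the data, NDUFA7 spanned 6.98 to 7.40, a range of 0.42, and 3 of the 40 genes (7.5%) and 18.3% of all tested genes kept a range of 1 or more. At the other end, ATP5PD, a subunit of the stalk that holds the ATP synthase still, stayed between 8.14 and 8.35 on all 12 arrays. The 40 genes also had a higher median level than all tested genes, 7.04 against 6.45, and spreads were not compared at matched levels. These spreads are given as a description with no test.

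**Figure D1:**
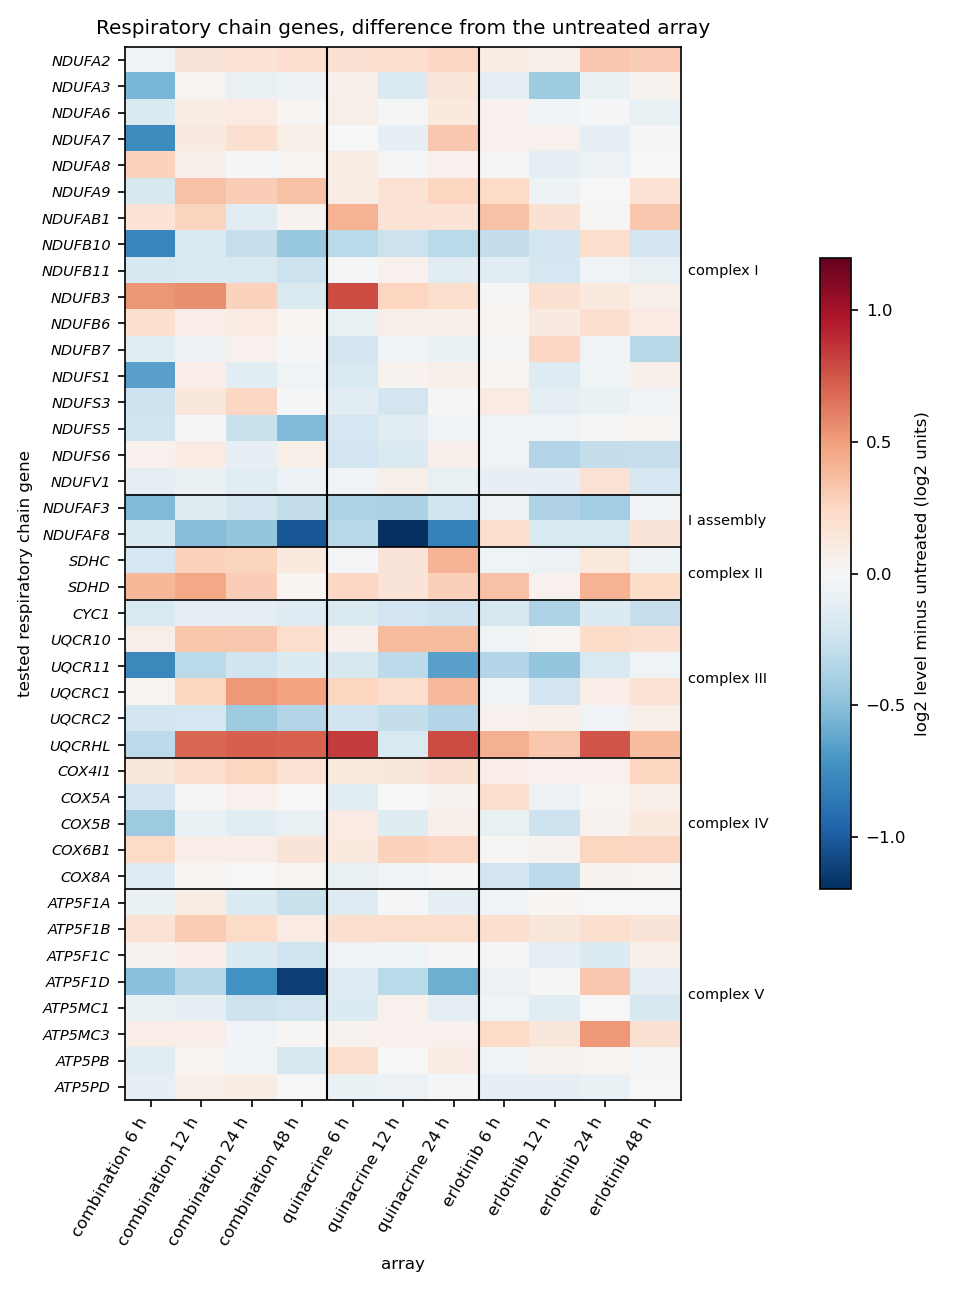
Difference of each tested respiratory chain gene (rows, ordered by complex) on each array (columns: combination, quinacrine, erlotinib) from the untreated array, in log2 units. Most cells are pale, and the rows that stand out are ATP5F1D and NDUFAF8, which are low on arrays with quinacrine. The column of the combination at 6 h also stands out, with the lowest value of 14 of the 40 genes. That array was low over all tested genes too (median -0.21).

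As a group the genes followed the rest of the array. On the combination arrays their median difference from the untreated array was -0.14, 0.08, -0.02 and -0.005 at 6, 12, 24 and 48 h, beside -0.21, 0.08, 0.07 and 0.04 for all tested genes. On the quinacrine arrays it was -0.025, -0.02 and 0.055 at 6, 12 and 24 h, beside -0.03, 0 and 0.09. On the erlotinib arrays it was -0.015, -0.065, 0.01 and 0.035 at 6, 12, 24 and 48 h, beside 0.06, -0.06, 0.03 and 0.06. The low value of the combination at 6 h was thus shared with the other genes on that array and was the largest shift in both sets. No array moved the chain further than that in its median.

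**Figure D2:**
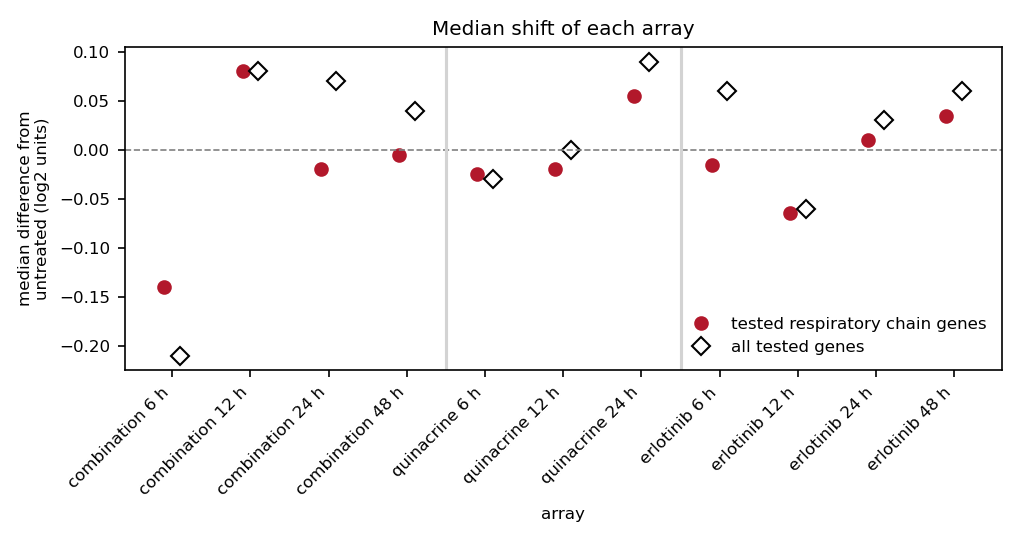
Median difference from the untreated array, in log2 units, over the 40 tested respiratory chain genes and over all 5820 tested genes, for each of the 11 treated arrays. Both sets lie lowest on the combination array of 6 h, at -0.14 and -0.21, and between -0.065 and 0.09 elsewhere.

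The first comparison set the combination against erlotinib alone at matched times, and so asked what quinacrine added to erlotinib. By limma, with adjustment over all tested genes, 1 of the 40 genes passed an adjusted p of 0.05, and it was lower, against 3.64% of all tested genes in either direction (2.22% lower). The median difference was -0.02 over the 40 genes and -0.03 over all tested genes. Without adjustment, 5 of the 40 genes had p under 0.05, against 20.8% of all tested genes. The 95% interval of the difference, averaged over the matched times, lay within 0.5 log2 units of 0 for 30 of the 40 genes. It lay within 1 for 39, against 54.0% and 92.9% of all tested genes. Its width comes from departure from additive effects of treatment and time, so it does not bound the difference at a single time. For NDUFS1 it was -0.48 to 0.16, while the difference at 6 h was -0.68. Arrays of the groups did not overlap for 3 of the 40 genes (7.5%), all lower, against 11.9% of all tested genes (7.94% lower).

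Complex I, the largest of the complexes, had 17 tested genes and none passed the test for combination against erlotinib; the median difference was -0.03. NDUFS1, the large iron-sulphur subunit of the arm that oxidises NADH, had levels of 6.25, 6.98, 6.77 and 6.86 with the combination at 6, 12, 24 and 48 h, and 6.93, 6.75, 6.85 and 6.96 with erlotinib. Apart from the low value of the combination at 6 h the arrays of the groups covered the same levels, and the difference was -0.16 (95% interval -0.48 to 0.16, adjusted p = 0.576). NDUFV1, which binds NADH and flavin, had 7.49, 7.52, 7.47 and 7.53 with the combination, and 7.50, 7.50, 7.77 and 7.40 with erlotinib. Its combination levels lay inside the erlotinib range, and the difference was -0.04 (95% interval -0.28 to 0.20, adjusted p = 0.877).

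The widest differences of complex I were those of accessory subunits, which surround its catalytic core and make up most of its tested genes. NDUFB10, an accessory subunit of the membrane arm, had 5.54, 6.14, 6.04 and 5.87 with the combination, and 6.03, 6.10, 6.53 and 6.09 with erlotinib. The groups overlapped, with the lowest array at 6 h of the combination and the highest at 24 h of erlotinib, and the difference was -0.29 (SE 0.13, adjusted p = 0.252). NDUFS6, a zinc-binding accessory subunit, leaned the other way, with 6.00, 6.05, 5.85 and 6.02 with the combination, and 5.91, 5.60, 5.66 and 5.67 with erlotinib. The combination arrays were above the erlotinib arrays at each matched time but overlapped the erlotinib array of 6 h, and the difference was 0.27 (SE 0.12, adjusted p = 0.237). NDUFS5, another accessory subunit, had 6.78, 7.01, 6.75 and 6.49 with the combination, 6.82, 6.88 and 6.97 with quinacrine at 6, 12 and 24 h, and 6.98, 6.98, 7.03 and 7.05 with erlotinib. The quinacrine arrays lay below all erlotinib arrays by small margins, the combination array of 12 h overlapped them, and neither difference passed (-0.25, adjusted p = 0.247, for the combination and -0.16, adjusted p = 0.569, for quinacrine). The remaining named genes of the complex had small differences in the same comparison: 0.07 for the core subunit NDUFS3 (95% interval -0.22 to 0.35), -0.13 for NDUFAB1, the mitochondrial acyl carrier protein (-0.37 to 0.10), -0.07 for NDUFA2 (-0.28 to 0.13), -0.01 for NDUFB7 (-0.27 to 0.26) and -0.10 for NDUFA7 (-0.51 to 0.32), the last 3 being accessory subunits.

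Of the 16 tested complex I genes with a promoter entry, 9 held at least 1 of 3 searched motifs and 7 held none. The windows below are shown because they belong to NDUFS6 and NDUFA8, 2 of the tested genes with the smallest p for combination against erlotinib among those whose promoter held a searched motif; the matches of the other two, UQCRC1 and UQCR10, lie outside the printed stretch. They are RefSeq sequence of build GRCh38.p14, 5′ to 3′ on the strand of the gene, from 70 bases before the annotated start through the first 30 bases after it. Capitals mark the NRF1 core GCATGCG, which overlaps its own match on the opposite strand, and the YY1 core ATGGCGG.
NDUFS6, chr5:1801337-1801436, plus strand: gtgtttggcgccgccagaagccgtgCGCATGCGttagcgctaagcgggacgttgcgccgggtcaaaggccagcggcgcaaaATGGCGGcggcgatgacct
NDUFA8, chr9:122159750-122159849, minus strand: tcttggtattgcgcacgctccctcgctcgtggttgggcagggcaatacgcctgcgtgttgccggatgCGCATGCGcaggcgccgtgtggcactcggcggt

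NDUFS6 thus held an NRF1 core upstream of its start and a YY1 core just after it, and NDUFA8 held an NRF1 core across its start. NDUFA8, an accessory subunit with paired cysteines, was at 6.64, 6.42, 6.35 and 6.39 with the combination, and 6.35, 6.25, 6.29 and 6.36 with erlotinib, a difference of 0.14 (adjusted p = 0.441). Over the windows of 250 bases before to 50 bases after the start, searched on both strands, 33 of the 40 tested genes and 67 of the 82 protein-coding genes of the chain had an entry. The NRF1 core was in 6 of the 33 (18.2%), against 4.13% of all 27305 promoters in the table and 5.14% of those of protein-coding genes. The ETS core CCGGAAG was in 10 (30.3%), against 10.7% and 14.2% of the same sets, and the YY1 core was also in 10 (30.3%), against 5.72% and 7.63%. At least 1 of the 3 motifs was in 19 of the 33 (57.6%), against 18.0% of all promoters and 23.6% of those of protein-coding genes. A match is a description of the letters in the window and not of binding.

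The 2 tested assembly factors of complex I differed in their spread. NDUFAF3, which takes part in early assembly, had differences of -0.08 for the combination against erlotinib (95% interval -0.38 to 0.22) and -0.08 for quinacrine against erlotinib (95% interval -0.41 to 0.26). NDUFAF8, a partner of the assembly factor NDUFAF5, had the widest range of all 40 genes. Its levels were 5.68, 5.34, 5.39 and 4.82 with the combination at 6, 12, 24 and 48 h, 5.52, 4.60 and 5.04 with quinacrine at 6, 12 and 24 h, 6.06, 5.67, 5.67 and 6.00 with erlotinib at 6, 12, 24 and 48 h, and 5.85 without treatment. All quinacrine arrays lay below all erlotinib arrays, and the combination array of 6 h overlapped the erlotinib arrays by 0.01. The difference was -0.85 for quinacrine against erlotinib (1.81-fold lower, SE 0.19, adjusted p = 0.0692) and -0.54 for the combination against erlotinib (SE 0.17, adjusted p = 0.123), and neither passed the test. These comparisons share the erlotinib arrays. The quinacrine difference passed under 5 of 21 alternative settings, with limma adjusted p between 0.0103 and 0.397. Over those settings, calls over all tested genes for quinacrine against erlotinib ran from 0 to 682, against 66 in the main fit. The combination difference passed under none of 21 and was -0.33 without erlotinib 48 h or without combination 48 h.

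Complex II was represented by its membrane anchors, which bind ubiquinone. SDHC had 7.05, 7.53, 7.52 and 7.37 with the combination, and 7.20, 7.18, 7.38 and 7.19 with erlotinib, which overlapped, with a difference of 0.13 (95% interval -0.11 to 0.37, adjusted p = 0.537). SDHD, at 4.92 to 5.38 on all arrays, had a difference of 0.04 (95% interval -0.23 to 0.30, adjusted p = 0.904).

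In complex III the large core proteins UQCRC1 and UQCRC2, structural partners related to the mitochondrial processing peptidase, leaned in opposite directions. UQCRC2 had 8.65, 8.67, 8.45 and 8.53 with the combination, 8.64, 8.59 and 8.53 with quinacrine, 8.93, 8.94, 8.84 and 8.95 with erlotinib, and 8.88 without treatment. All 7 arrays with quinacrine lay below all 5 arrays without it, a separation found for UQCRC2 and ATP5F1D among the 40 genes (5%) and for 6.82% of all tested genes (4.48% lower). The difference was -0.34 for the combination against erlotinib (SE 0.087, limma adjusted p = 0.0750) and -0.33 for quinacrine against erlotinib (limma adjusted p = 0.130), neither past the threshold. Each passed under 2 of 21 alternative settings. Over those settings, calls over all tested genes ran from 6 to 461 for the combination and from 0 to 682 for quinacrine.

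UQCRC1 had 7.35, 7.58, 7.84 and 7.80 with the combination, 7.58, 7.53 and 7.71 with quinacrine, 7.29, 7.09, 7.40 and 7.49 with erlotinib, and 7.32 without treatment. The quinacrine arrays were above all erlotinib arrays, and the combination arrays were above the erlotinib array of the same time at each of 4 times but overlapped the group. The difference was 0.33 (SE 0.10, adjusted p = 0.126) for the combination and 0.34 (adjusted p = 0.169) for quinacrine. A difference between the response of UQCRC1 and that of UQCRC2 was not tested. In the promoter windows UQCRC1 held a YY1 core from base 27 after its start and UQCRC2 held none of the 3 motifs.

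**Figure D3:**
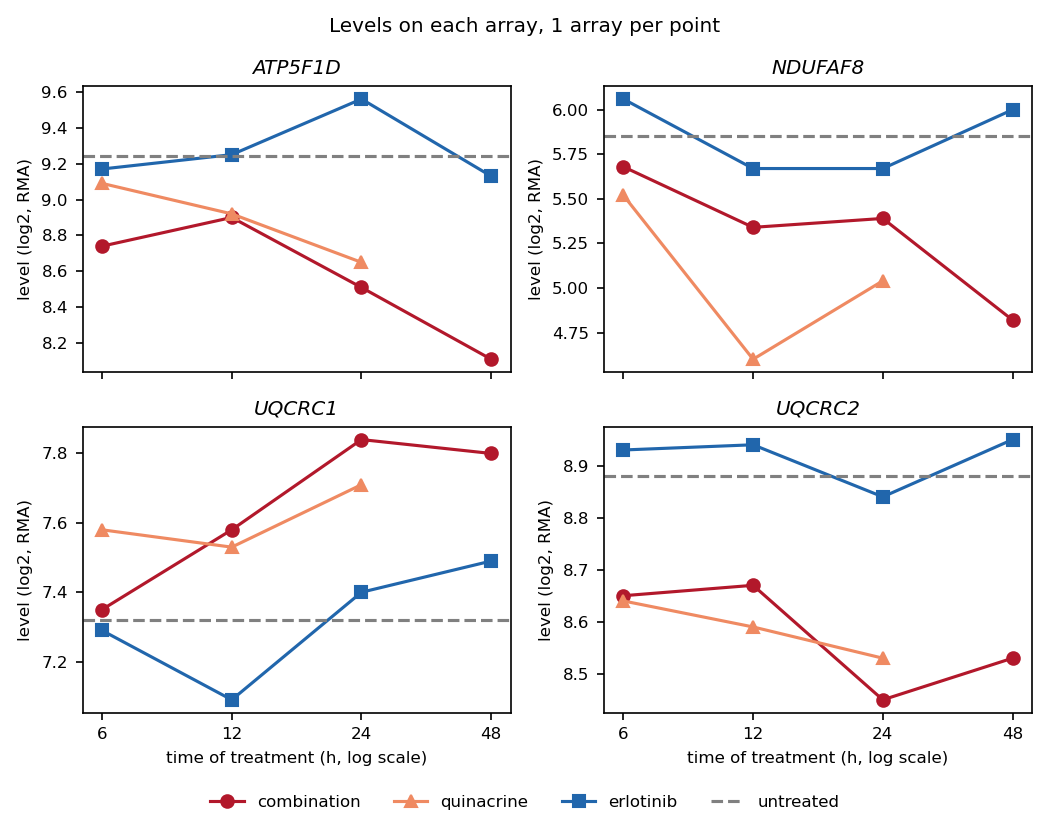
Levels (log2) of ATP5F1D, NDUFAF8, UQCRC1 and UQCRC2 against time of treatment (h, log scale), with 1 array per point, lines joining the arrays of the combination, quinacrine and erlotinib groups, and a dashed line at the untreated array. ATP5F1D and UQCRC2 lie lower on all arrays with quinacrine than on the erlotinib arrays, and ATP5F1D reaches 8.11 with the combination at 48 h against 9.13 with erlotinib.

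The other complex III genes gave no call either. CYC1, the cytochrome c1 that hands electrons to cytochrome c, had 8.30, 8.36, 8.36 and 8.33 with the combination, and 8.29, 8.11, 8.32 and 8.20 with erlotinib. The combination arrays differed among themselves by less than the erlotinib arrays did, and the difference was 0.11 (95% interval -0.10 to 0.31, adjusted p = 0.557). The small subunit UQCR10 stood at 8.83 to 9.26 on all arrays and UQCR11 at 6.07 to 6.84, with differences of 0.14 and -0.11. UQCRHL varied more, at 4.57, 5.57, 5.60 and 5.59 with the combination, 5.72, 4.70 and 5.66 with quinacrine, 5.31, 5.20, 5.63 and 5.26 with erlotinib, and 4.88 without treatment. The combination array of 6 h, the quinacrine array of 12 h and the untreated array were the low ones, and the treated groups overlapped.

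None of the 5 tested complex IV genes passed the test. COX4I1, the ubiquitous form of the regulatory subunit 4, had 10.68, 10.75, 10.80 and 10.70 with the combination, 10.66, 10.68 and 10.72 with quinacrine, 10.62, 10.59, 10.59 and 10.80 with erlotinib, and 10.54 without treatment. The groups overlapped through the erlotinib array of 48 h, and the difference of the combination from erlotinib was 0.08 (95% interval -0.13 to 0.29, adjusted p = 0.668). Its tissue-restricted paralogue COX4I2 lay at 0.89 to 1.96, near the array medians of 1.39 to 1.64, and was not tested. COX5A, which sits beside subunit 4, had a difference of -0.10 (95% interval -0.35 to 0.15), COX6B1, on the outer side facing cytochrome c, of -0.01 (95% interval -0.24 to 0.23), and COX8A, the smallest ubiquitous subunit, of 0.10 (95% interval -0.13 to 0.32). COX5B, a zinc-binding subunit at 4.70 to 5.26, just cleared the level required for a test, and its difference was -0.14 (adjusted p = 0.550). Below it, COX7A2, the general form of subunit 7A, had 4.22, 4.58, 4.75 and 4.52 with the combination, 4.60, 4.35 and 4.54 with quinacrine, and 4.38, 4.05, 4.15 and 4.35 with erlotinib, which overlapped, whereas COX7A2L, which joins complexes III and IV, stayed at 4.02 to 4.48. The muscle forms COX7A1, at 0.80 to 1.30, and COX6A2, at 1.59 to 3.24, were not tested either, and the 4 muscle markers stayed at or below 3.15.

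Complex V held the single call. ATP5F1D encodes the delta subunit of the central stalk, the part of the ATP synthase that turns with the proton-driven ring. Its levels were 8.74, 8.90, 8.51 and 8.11 with the combination at 6, 12, 24 and 48 h, 9.09, 8.92 and 8.65 with quinacrine at 6, 12 and 24 h, 9.17, 9.25, 9.56 and 9.13 with erlotinib at 6, 12, 24 and 48 h, and 9.24 without treatment. All 4 combination arrays and all 3 quinacrine arrays lay below the untreated array and below all erlotinib arrays. The combination minus erlotinib difference was -0.43, -0.35, -1.05 and -1.02 at 6, 12, 24 and 48 h. ATP5F1D fell by 0.71 on the log2 scale in the combination relative to erlotinib (1.64-fold, SE 0.16, 95% interval -1.07 to -0.36, limma adjusted p = 0.0463). With quinacrine alone the difference from erlotinib was -0.49 (adjusted p = 0.192).

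The ATP5F1D call stood at the edge of the threshold. ATP5F1D was lower in all 21 alternative settings, by 0.58 to 0.85 log2 units, but passed in 6 of them, with limma adjusted p between 0.0168 and 0.289. Over those settings, calls over all tested genes ran from 6 to 461, against 212 in the main fit. When arrays were left out in turn, the call held without erlotinib 6 h (adjusted p = 0.0232) and without combination 6 h (0.0491). By limma it was lost without erlotinib 12 h (adjusted p = 0.0767), 24 h (0.144) or 48 h (0.156). The same held without quinacrine 6 h (0.0654), 12 h (0.0864) or 24 h (0.0718). It was lost too without combination 12 h (0.0749), 24 h (0.172) or 48 h (0.156). Leaving out a quinacrine array kept the difference at -0.71, while calls over all tested genes fell from 212 to 66, 41 and 26 (6, 12 and 24 h). Leaving out erlotinib 48 h or combination 48 h gave the same fit, with a difference of -0.61.

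The other 7 tested genes of the enzyme did not pass. ATP5F1B, the catalytic beta subunit, had 11.58, 11.71, 11.64 and 11.51 with the combination, 11.60, 11.62 and 11.62 with quinacrine, 11.60, 11.55, 11.60 and 11.56 with erlotinib, and 11.41 without treatment. The treated groups overlapped and the untreated array was the lowest, and the combination differed from erlotinib by 0.03 (95% interval -0.17 to 0.23, adjusted p = 0.880). For the alpha subunit ATP5F1A the difference was -0.10 (95% interval -0.31 to 0.12) and for ATP5F1C, the gamma subunit of the same rotating stalk as delta, it was -0.01 (95% interval -0.26 to 0.23). The stalk subunits ATP5PB and ATP5PD had differences of -0.09 and 0.09. ATP5MC3, 1 of several genes for the same ring subunit, had 5.03, 5.03, 4.92 and 4.96 with the combination, 4.99, 5.00 and 5.00 with quinacrine, and 5.19, 5.09, 5.47 and 5.13 with erlotinib. Neither group with quinacrine overlapped the erlotinib arrays, but the untreated array, at 4.95, lay with the quinacrine arrays, and the difference was -0.23 (SE 0.11, adjusted p = 0.251). ATP5MC1, for the same ring subunit, had a difference of -0.07 (adjusted p = 0.727). Whether ATP5F1D differed from its partners was not tested.

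**Figure D4:**
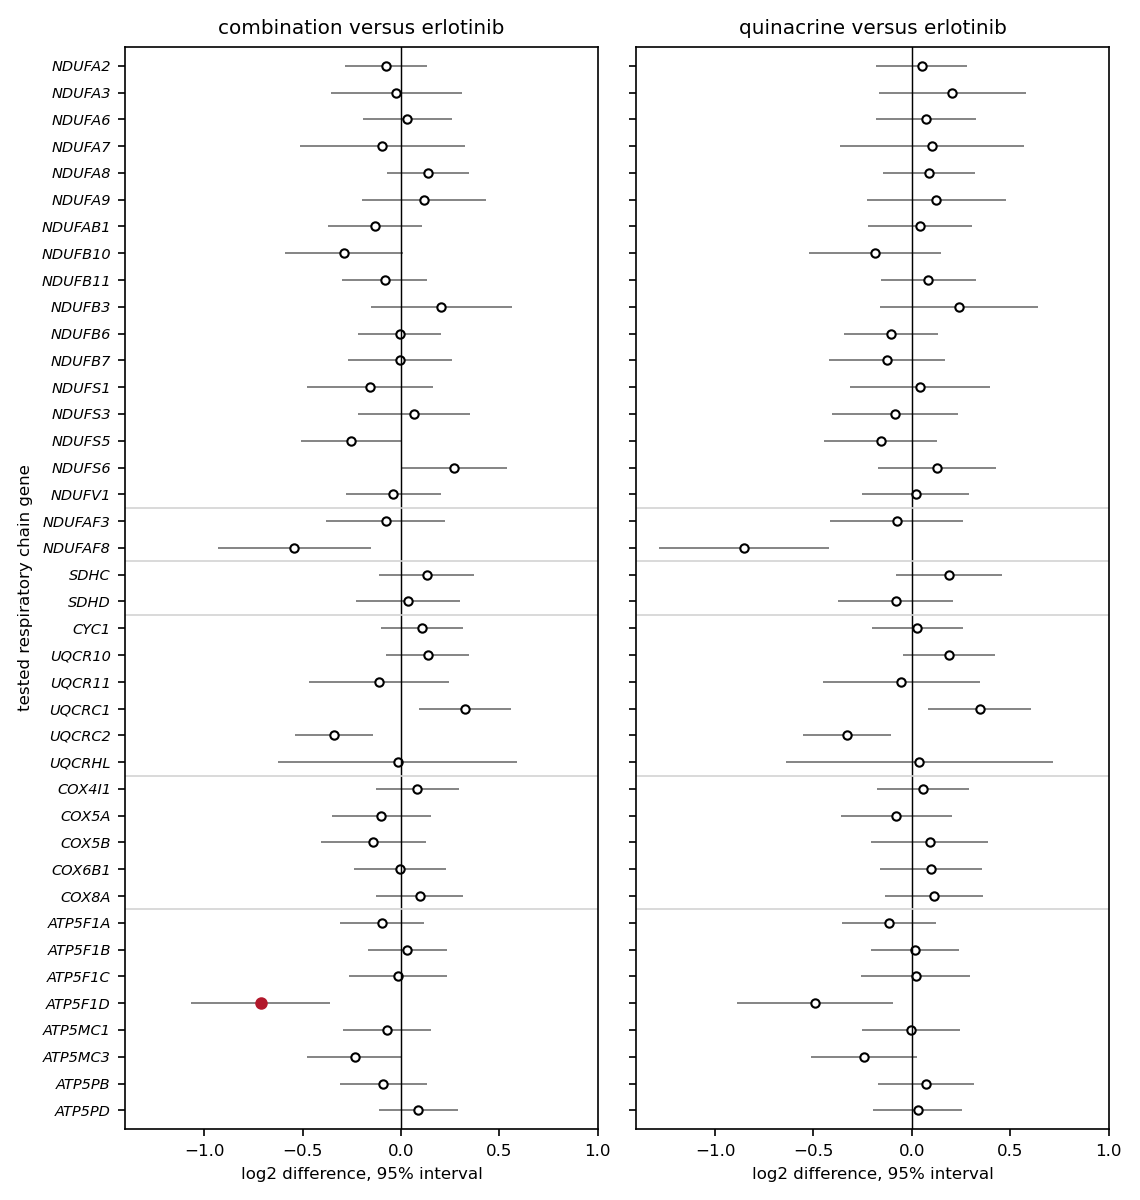
Log2 difference with its 95% interval for each of the 40 tested respiratory chain genes, in the combination and in quinacrine alone, each against erlotinib. ATP5F1D, at -0.71, is the 1 gene past an adjusted p of 0.05, and 39 of the 40 combination intervals lie within 1 log2 unit of 0.

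Quinacrine alone against erlotinib gave 0 of 40 calls by limma, against 1.13% of all tested genes, and 4 of the 40 genes had an unadjusted p under 0.05, against 17.6%. The median difference was 0.03 over the 40 genes and 0.01 over all tested genes. Groups did not overlap for 7 of the 40 genes (17.5%), against 19.4% of all tested genes (9.33% higher and 10.1% lower). NDUFB3, a membrane arm accessory subunit of complex I, and UQCRC1 were higher with quinacrine, whereas NDUFS5, NDUFAF8, UQCRC2, ATP5F1D and ATP5MC3 were lower. NDUFB3 had 5.99, 5.47 and 5.42 with quinacrine and 5.22, 5.39, 5.33 and 5.28 with erlotinib, so that the gap came mostly from the array of 6 h, and its difference was 0.24 (adjusted p = 0.535).

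Adding erlotinib to quinacrine gave 0 of 40 calls by limma, and 0% of all tested genes passed. None of the 40 genes had an unadjusted p under 0.05, against 0.808%, and the differences ran from -0.23 to 0.31 with a median of -0.03 over the 40 genes and -0.04 over all tested genes. Groups did not overlap for NDUFB11 alone (2.5%, against 1.63%, of which 1.13% lower), an X-linked accessory subunit of complex I. It had 7.64, 7.66, 7.65 and 7.57 with the combination against 7.82, 7.88 and 7.70 with quinacrine, a separation of 0.04 between the nearest arrays.

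Against the lone untreated array the chain also gave no call. For the combination 0 of 40 genes passed (0.0515% of all tested genes) and 2 had an unadjusted p under 0.05 (11.2%), for quinacrine 0 passed (0.0344%) and 1 had an unadjusted p under 0.05 (10.3%), and for erlotinib 0 passed (0%) and 0 had an unadjusted p under 0.05 (2.47%), all by limma. The median 95% interval reached 0.37 log2 units to either side for the combination and for erlotinib and 0.38 for quinacrine. The 3 comparisons share the untreated array, which has no second array to measure its spread. ATP5F1B had the lowest of its 12 values there, and SDHD, at 4.92, did too.

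Time of treatment gave no call. A slope on log2 time, common to the 3 treated groups, passed for 0 of 40 genes (limma), against 2.3% of all tested genes, and 2 genes had an unadjusted p under 0.05, against 22.7%. These were UQCRC1, with a slope of 0.12 per doubling (adjusted p = 0.130), and NDUFB3, with -0.14 (adjusted p = 0.178). Without erlotinib 6 h both passed, but calls over all tested genes ran from 14 to 863 as single arrays were left out. The median slope was 0.01 over the 40 genes and 0.05 over all tested genes.

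The difference in slope between the combination and erlotinib passed for 0 of 40 genes (limma), against 0% of all tested genes, with an unadjusted p under 0.05 for 1 of the 40 genes, against 13.2%. That gene was NDUFB3, whose combination levels of 5.74, 5.77, 5.49 and 5.04 were highest at the early times, against a flat 5.22, 5.39, 5.33 and 5.28 with erlotinib, giving a slope difference of -0.25 per doubling (adjusted p = 0.342). It was -0.14 without combination 48 h and -0.38 without combination 6 h. The 8 tested complex V genes had slope differences between -0.25 for ATP5F1D and -0.001 for ATP5PD, and none passed. That of ATP5F1D was -0.13 without combination 48 h, -0.41 without combination 6 h and -0.42 without erlotinib 48 h. The median was -0.02 over the 40 genes and 0.07 over all tested genes.

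The 48 genes of the chain below the tested level comprised 42 protein-coding genes and 6 that are not. Just below lay COX7B and ATP5MJ, with means of 4.97, and just above lay NDUFB6, ATP5MC3 and COX5B, with means of 5.06. Another 15 lay between 4 and 5, 17 between 2 and 4, and 14 below 2. The last of these include the tissue-restricted complex IV forms COX7A1, COX7B2, COX8C and COX4I2, and also NDUFV2, COX6A1 and NDUFA12, which encode general subunits and stood at 1.32 to 2.01, 0.90 to 1.91 and 1.56 to 1.83. Whether these low values belong to the probe sets or to the cells was not tested. COX6A1 and its pseudogene COX6A1P2 also shared a row that was set aside. Combination and erlotinib arrays did not overlap for 2 of the 48 (4.17%), against 4.26% of all genes below the tested level. Quinacrine and erlotinib arrays did not overlap for 5 (10.4%, against 7.84%), and combination and quinacrine arrays for 1 (2.08%, against 4.10%).

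The lncRNA NDUFB2-AS1, transcribed opposite the complex I gene NDUFB2, was 1 of those 5. It had 3.36, 4.26, 4.40 and 4.27 with the combination, 4.43, 3.70 and 4.38 with quinacrine, 3.16, 3.58, 3.45 and 3.43 with erlotinib, and 4.03 without treatment. The quinacrine arrays lay above all erlotinib arrays, and of the combination arrays that of 6 h overlapped erlotinib and the later ones did not. NDUFS4, a complex I accessory subunit, was the 1 gene that separated the combination, at 4.95, 5.06, 4.96 and 5.05, from quinacrine, at 4.57, 4.40 and 4.90, while the erlotinib arrays, at 4.95, 4.95, 4.96 and 4.89, overlapped both. No gene below the tested level has a p here.

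Genes that work beside the chain were described from lists, to be read against the 3.64% of all tested genes (2.22% lower) called for combination against erlotinib and the median of -0.03. For combination against erlotinib, 0 of 21 tested assembly factors outside the NDUFAF family passed (median -0.10), as did 0 of 7 carriers and ubiquinone genes (0.02), 0 of 7 regulators of mitochondrial biogenesis (0.01), 0 of 13 genes of the TCA cycle and pyruvate dehydrogenase (0.05), 0 of 4 pyruvate dehydrogenase kinases and phosphatases (-0.15) and 0 of 9 mitochondrial chaperones and proteases (-0.06). None of 33 cytosolic ribosomal protein genes passed (median -0.005). Among 12 glycolysis genes the liver-type phosphofructokinase PFKL fell, by 0.53 (adjusted p = 0.0393). Among 49 genes of the mitochondrial ribosome, which translates the chain's mitochondrially encoded subunits, MRPS34 fell by 0.57 (adjusted p = 0.0291) and MRPL24 by 0.49 (adjusted p = 0.0333), and the median was 0.005. Among 19 genes of mitochondrial protein import the outer membrane receptor TOMM20 fell by 0.49 (adjusted p = 0.0350). As with ATP5F1D, these 4 calls held without erlotinib 6 h or combination 6 h and were lost without any of the other 9 treated arrays, with differences of -0.64 to -0.44 and adjusted p (limma) between 0.0136 and 0.157 as arrays were left out. Calls over all tested genes ran from 6 to 322 under the same omissions. No list had a gene higher past the threshold in that comparison, and for quinacrine against erlotinib no gene of these lists passed, against 1.13% of all tested genes. For the shared slope the import gene TIMM21, of the inner membrane translocase, fell, by 0.16 per doubling of time (adjusted p = 0.0457), against 2.3% of all tested genes. That call held without erlotinib 6 h and was lost without any of the other 10 treated arrays, with adjusted p (limma) between 0.0140 and 0.144. Calls over all tested genes for that slope ran from 14 to 863 as arrays were left out.

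MRPS34, a protein of the small mitochondrial ribosomal subunit, had 8.55, 8.39, 8.29 and 8.26 with the combination, 8.61, 8.38 and 8.34 with quinacrine, 8.94, 8.97, 9.05 and 8.82 with erlotinib, and 9.09 without treatment. TOMM20 had 6.41, 6.01, 6.06 and 6.23 with the combination, 6.30, 6.18 and 6.02 with quinacrine, 6.71, 6.59, 6.65 and 6.70 with erlotinib, and 6.90 without treatment. In both, and in PFKL and MRPL24, every array with quinacrine lay below every array without it, as for 4.48% of all tested genes. These genes were picked by a comparison on the same arrays, so the separation is no further support.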

How the data were processed

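RNA of H1975 cells was read on 12 Affymetrix Human Gene 2.1 ST arrays. Per the submitters' processing notes, the authors used Affymetrix Expression Console 1.30 with RMA; the deposited values are log2 levels with 2 decimals and were used as deposited. Of 53617 rows, 23871 carried 1 symbol, 1842 several and 27904 none in the platform annotation; 22572 were matched to RefSeq by Entrez ID and 90 symbols were updated. A gene took its row with the highest mean, and genes with a mean of at least 5 were tested, a mean that counts treated arrays too.

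Tests used limma 3.58.1 in R 4.3.3 (lmFit, eBayes) with Benjamini-Hochberg adjustment over 5820 genes and a threshold of 0.05. Treated groups were compared in a fit of treatment and time over 11 arrays, whose residual is departure from additivity, not replicate error. Group means over 12 arrays gave the comparisons with the untreated array, assumed to vary like the rest; changes with time counted as spread there. Slopes used log2 time. The procedure was tested on simulated data with independent noise for each gene. The simulation held no shift of a whole array, so it does not speak for arrays such as the combination at 6 h. Precision is limited by the number of arrays, which have no read depth.

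Members and lists were chosen with earlier results of these data known. Genes were named by rule: members past the threshold (otherwise the 3 smallest p in each direction), the extremes of each complex by matched difference, and fixed core subunits; others, such as NDUFS5, NDUFA8, ATP5MC1, NDUFB2-AS1 and NDUFS4, were added after their values were seen. Of the other lists, genes past the threshold were named. Alternatives covered the filter, rows, scaling, array weights, prior variance, arrays, times and time term.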

Additional observations from a re-analysis of the deposited data

Results flagged for a closer look

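Among 60 groups of 4 arrays examined for the named genes, 7 held an array far from the other 3, by Dixon's ratio of gap to range. The 60 groups are 30 genes read on the same arrays, and the 4 arrays of a group are different times. No chance rate therefore applies, and the share over all tested genes was not computed. In the combination, the array of 6 h was the distant one for NDUFA7 (6.32, the others 7.15 to 7.27), UQCRHL (4.57, the others 5.57 to 5.60), COX5B (4.70, the others 5.01 to 5.06) and COX8A (9.92, the others 10.07 to 10.10), and it was the low one each time. In erlotinib, the array of 24 h was high for NDUFB10 (6.53, the others 6.03 to 6.10) and SDHC (7.38, the others 7.18 to 7.20), and the array of 48 h was high for COX4I1 (10.8, the others 10.59 to 10.62). The combination array of 6 h also had the narrowest interquartile range of all arrays (2.04), and the part of that spread in these values was not tested.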

How the results depend on the processing

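For combination against erlotinib 1 of 40 genes was called, and the count was 0 with no filter, with all rows of the table, without the 48 h arrays, without combination 6 h and erlotinib 12 h, with no time term (no replicate block) and with only the 2 groups fitted; it was 2 with arrays centred on their median and with a robust, trended prior variance, 3 with cyclic loess, and 0 to 1 with single arrays left out. For quinacrine against erlotinib 0 were called, against 1 with cyclic loess, centring or the robust prior, 4 with array weights, and 0 to 1 with single arrays left out; the median over the genes was 0.03, -0.011 without combination 6 h and erlotinib 12 h, and -0.011 to 0.048 with single arrays left out. Array weights also gave calls for the combination and for quinacrine against the untreated array, but that group holds 1 array. The same setting raised calls over all genes from 212 to 380 for combination against erlotinib and from 66 to 682 for quinacrine against erlotinib. These calls are therefore not read as a result about the chain. The shared slope gave 0 to 2 with single arrays left out, beside 14 to 863 calls over all tested genes. The slope difference between combination and erlotinib turned to 0.05 for NDUFAF8 without the 48 h arrays and to -0.018 for UQCRHL without combination 6 h (-0.018 to 0.487 with single arrays left out). The cause was not tested in any of these. Of 160 counts of respiratory chain calls under alternatives 133 kept the count, and of 1022 values of named genes 909 kept direction and side of the threshold. Over all genes, combination against erlotinib gave 212 calls (83 higher), 461 (225 higher) with cyclic loess and 439 (223 higher) with centring. It gave 306 with the robust prior, 168 without combination 6 h and erlotinib 12 h, and 162 with no time term. With no filter it gave 51, without the 48 h arrays 34, with all rows 9 and with only the 2 groups 6. Single arrays left out gave 6 to 322. Quinacrine against erlotinib gave 66, 318 with cyclic loess, 293 with centring, 172 with the robust prior and 682 with array weights. Single arrays left out gave 0 to 288 there. The counts for the chain are to be read beside these. The labels give no replicate numbers, so arrays were paired by time. With only the 2 groups fitted at matched times, ATP5F1D kept its combination minus erlotinib difference of -0.71 but did not pass (limma adjusted p = 0.140). Signal over background limits the 48 genes below a mean of 5; they entered the fits with no filter, where none was called.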
